A study of Mus musculus with 4 samples.

Results

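Translation initiation and elongation factors were followed in 4 RNA sequencing libraries built around the B16F10 mouse melanoma line. The genes were those whose symbols begin with Eif1 to Eif6, Eef1 or Eef2, without the eIF2 kinases, the eIF4E-binding proteins and the genes of the gamma subunit of eIF2. Of 19894 genes with at least 1 read in any library, 54 met this rule. A further 2 matching symbols, Eif3j1 and Eif3j2, are near-identical copies and were listed at 0 reads in every library.

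The groups held 1 library each and all carried the genotype label WT. B16F10 cells were grown as a 2D monoculture, as a 2D co-culture with NIH/3T3 mouse fibroblasts, or as hanging-drop spheroids with NIH/3T3 fibroblasts, and the last library came from a mouse tumor. Per the study's methods, tumors were raised under the skin of the flanks of 1-year-old female C57BL/6 mice, and the cultured B16F10 cells carried a green fluorescent protein on which they were sorted. No drug, dose or time is labelled for any group. The tumor library is labelled as snap frozen tumor, while the series' design text names sorted cells, and which applies cannot be settled from the labels. Both cell lines and the host are mouse, so reads of B16F10 cells and of other cells cannot be told apart by sequence.

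Library totals lay between 118896900 and 150028663 reads, and the upper limit left by a count of 0, which is 3 reads, equals 0.0185 to 0.0262 counts per 1000000 reads (CPM) depending on the library. The CPM were scaled with TMM factors (trimmed mean of M values), and every level below is in this unit unless it is given per kb of exon. Exon length here is that of all annotated exons of a gene merged, not of 1 mRNA form. With 1 library per condition the spread between replicates could not be measured, so no p-value is given, and the 95% intervals printed with log2 ratios cover counting error only. Calls are differences over 2-fold among the 12728 genes that averaged 1 CPM or more, taken on the log2 scale with 1 CPM added. Medians of gene groups use the same scale, while log2 ratios of single genes carry no added count. Changing the scaling shifted all log2 ratios of a comparison by up to 0.25 between tumor and monoculture, between -0.12 and 0.12 between spheroid and monoculture, and by -0.36 between spheroid and tumor.

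Markers of other cell types were high in the tumor library, and in co-culture those of fibroblasts were. The 8 melanocyte markers, which check the labelled melanoma cells, summed to 11420 CPM or more in every library. Their sum was highest in the tumor, at 20122 CPM. Against monoculture, 3 of 8 were over 2-fold lower in the spheroid, 0 in co-culture and 1 in the tumor, and 0 were over 2-fold higher. The lowest were Mitf in the spheroid and Sox10 in the tumor, at log2 ratios of -2.55 and -1.81 with 1 CPM added. The 9 fibroblast markers summed to 17.6 CPM in monoculture, 679 in co-culture, 36.5 in the spheroid and 2728 in the tumor, and 5 of 9 were over 2-fold higher in co-culture than in monoculture, 3 of 9 in the spheroid and 8 of 9 in the tumor. The 8 myeloid, 8 endothelial and 7 skeletal muscle markers summed to 1606, 281 and 5228 CPM in the tumor, against at most 29.99, 4.60 and 14.7 CPM in any culture, and every gene of these 3 lists was over 2-fold higher in the tumor than in monoculture. In co-culture the myeloid and endothelial sums, 9.92 and 1.31 CPM, were under those of monoculture, 29.99 and 3.18 CPM. Gene by gene this did not hold for the lists. With 1 CPM added, 7 of 8 myeloid markers lay above monoculture and only Cd68 below, at a log2 ratio of -2.60. Of the endothelial markers, 4 lay above and 4 below, and Vwf alone was over 2-fold lower, at -1.05. The muscle marker Myh4 in monoculture was the only marker of the 5 lists at 0 in any library. In bulk samples fewer cells of a type and less RNA per cell cannot be told apart, and the part of other cells in the ratios below was not tested except where a value is given.

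Translation of an mRNA begins when eIF4F (the cap-binding eIF4E, the helicase eIF4A and the scaffold eIF4G) prepares its capped end for a small ribosomal subunit that carries eIF3, eIF1, eIF1A and the initiator tRNA held by eIF2. The small subunit scans to a start codon, eIF5 triggers GTP hydrolysis on eIF2, eIF5B joins the large subunit, and eIF2B reloads the spent eIF2 with GTP. In elongation, eEF1A brings each aminoacyl-tRNA, the eEF1B subunits recycle it, and eEF2 moves the ribosome along by a codon. Melanoma cells, like other growing cells, spend much of their energy on this machinery, and stress signalling acts on it through eIF2 and eIF4E.

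The genes fell into a few distinct profiles. In both cultures that contained fibroblasts, Eif3a, Eif3c and Eif5b stood between 3.602-fold and 6.26-fold under their monoculture level, while in the tumor they were within 2-fold of it. Of the corrections described next, that for GC content and length left these culture differences past 2-fold. With that for coding length and purines, only Eif3c in co-culture stayed past 2-fold, at a log2 ratio of -1.31. Within eIF2B, the genes of the alpha, gamma and epsilon subunits were over 2-fold lower in the spheroid than in monoculture, while those of the beta and delta subunits were not, and only Eif2b1 (alpha) stayed past 2-fold under both corrections described next. Eef1a1 and Eef2, the genes with the most reads of the 54, ordered the libraries in opposite ways before correction. With that for GC content and length, both were lower in the spheroid than in monoculture, at log2 ratios of -1.30 and -0.26. Between spheroid and tumor they stayed opposite, at -1.24 and 0.35. Eef1a2, a form of eEF1A known from muscle and neurons, was under 1 CPM in each culture and at 48.0 CPM in the tumor.

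Many of the ratios depended on 2 corrections, in which each gene was set against genes of similar GC content and exon length, or of similar coding length and content of A and G (purines), the latter added after the data had been seen. Of 56 ratios over 2-fold in the 5 comparisons, 30 were over 2-fold after the first correction and 29 after the second. Corrected log2 ratios are given below for the main genes whose difference then fell within 2-fold and for some others, on the scale with 1 CPM added.

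Translation factor reads made up 2.95% of all reads in monoculture, 2.70% in co-culture, 2.23% in the spheroid and 2.98% in the tumor. Eef1a1 and Eef2 alone held between 39.5% (co-culture) and 50.4% (tumor) of these reads. The median gene of the 54 stood at 168, 165, 137 and 182 CPM in monoculture, co-culture, spheroid and tumor, against 27.3 to 31.5 CPM over the genes tested, so these are abundant mRNAs in every library. All but Eif4e1b, a form of eIF4E known from germ cells, averaged 10 CPM or more. Eif4e1b had 8, 8, 0 and 6 reads in the same order, too few for a ratio, and the counts below are over the other 53 genes.

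**Figure D1:**
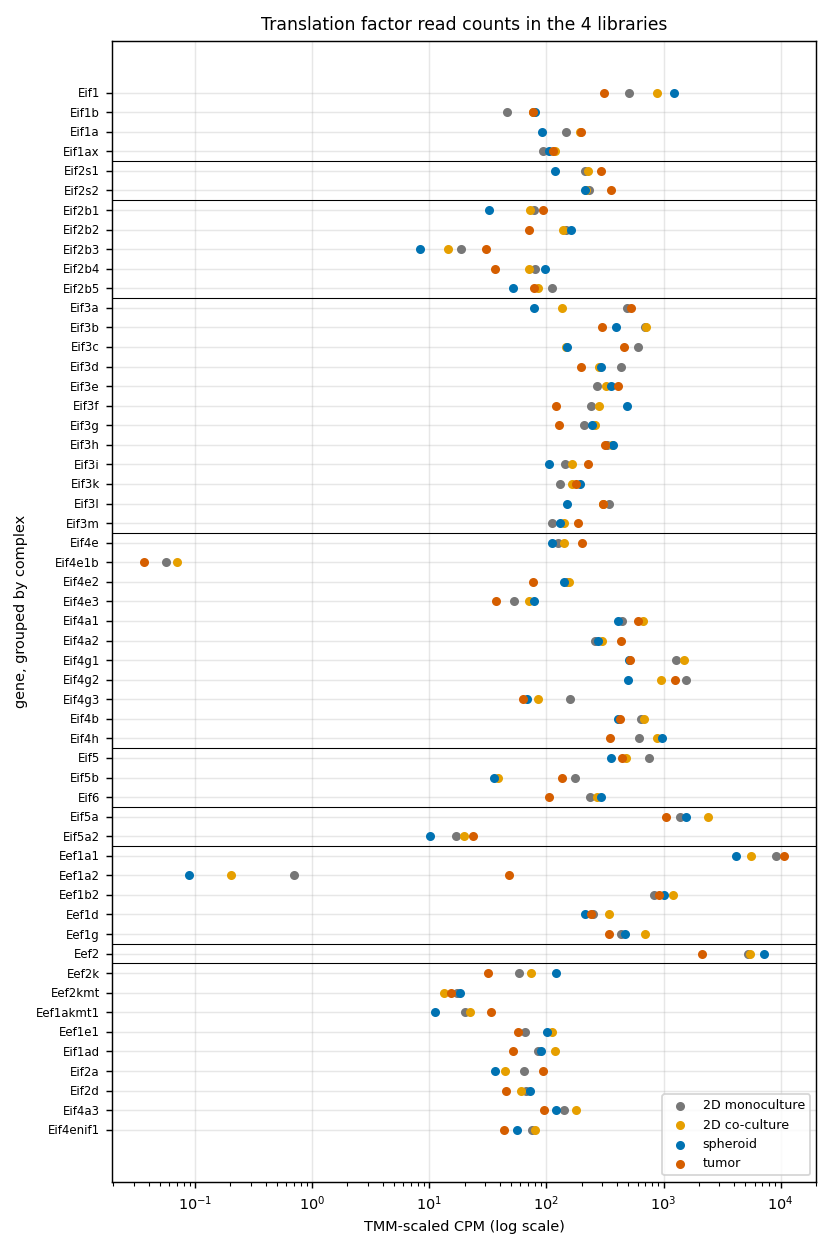
Level of each of the 54 genes (rows, grouped by complex between the horizontal lines) in TMM-scaled CPM on a log axis, 1 point per library, with no error bars because each condition has 1 library. Eef1a1 and Eef2 sit at the right, Eef1a2 spans from 0.0881 CPM in the spheroid to 48.0 CPM in the tumor, and the spheroid value of Eif4e1b is 0 and is not drawn.

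Against monoculture, the spheroid held 12 of 53 genes over 2-fold lower and 3 over 2-fold higher. That is 22.6% and 5.66% of the genes, beside 17.9% and 11.2% of all genes tested. The median log2 ratio was -0.13 over the 53 and 0.05 over all genes. The 12 lower genes were Eif3a, Eif3c, Eif3l, Eif2b1, Eif2b3, Eif2b5, Eif4g1, Eif4g2, Eif4g3, Eif5, Eif5b and Eef1a1, and the 3 higher ones were Eif1, Eif3f and Eef2k, of which Eif1 alone was over 2-fold with total counts as the scaling. Shares this close to the background are not a result about the genes as a group, and the account below is of the single complexes.

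In 2D co-culture against monoculture, 3 of 53 genes (5.66%) were over 2-fold lower and 0 were over 2-fold higher, beside 9.51% and 3.79% of all genes. The median log2 ratio was 0.15, and 34 of 53 genes lay above 0. Between tumor and monoculture, 9 genes (17.0%) were over 2-fold lower and 1 (1.89%) over 2-fold higher, beside 18.2% and 14.8% of all genes, with a median of -0.32 against -0.14 over all genes. The 9 lower genes were Eef2, Eif2b2, Eif2b4, Eif3b, Eif3d, Eif3f, Eif4g1, Eif4g3 and Eif6, and their number was 3 with total counts or with upper quartile factors. The GC content and length correction also left 3, of which Eif3d was among the 9 and Eif1 (-1.10) and Eif5 (-1.04) were not. These 3 comparisons share the monoculture library, so a deviation of that library would appear in all of them.

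Compared with co-culture, the spheroid had 4 genes (7.55%) over 2-fold lower, Eif1a, Eif2b1, Eif3l and Eif4g1, and 0 over 2-fold higher, beside 8.46% and 9.54% of all genes. Compared with the tumor, the spheroid had 15 genes (28.3%) over 2-fold lower and 9 (17.0%) over 2-fold higher, beside 27.6% and 26.8%. The median absolute log2 ratio between spheroid and tumor was 0.84 for these genes and 1.11 over all genes.

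**Figure D2:**
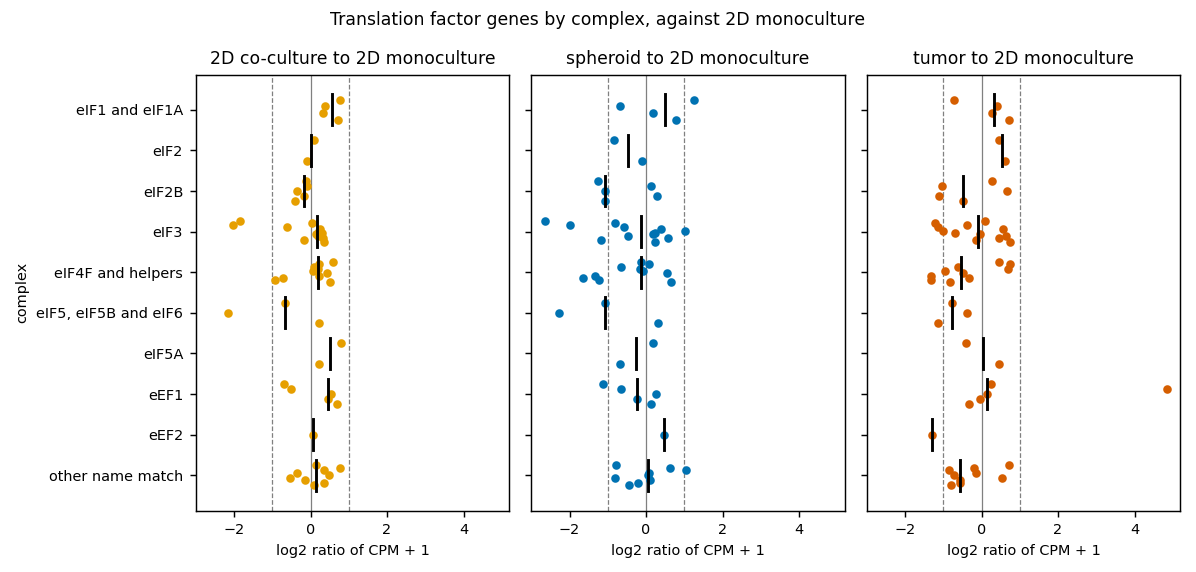
Log2 ratio of CPM + 1 to 2D monoculture for co-culture, spheroid and tumor (panels), with 1 point per gene, genes grouped by complex, a black bar at the median of each group and dashed lines at 2-fold. The 2 leftmost eIF3 points in co-culture and spheroid are Eif3a and Eif3c, the leftmost point of the eIF5 group is Eif5b, and the point at 4.85 in the tumor panel is Eef1a2.

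Before correction, the small factors of start codon selection were mostly higher outside monoculture. The 4 genes of eIF1 and eIF1A had a median log2 ratio to monoculture of 0.55 in co-culture, 0.48 in the spheroid and 0.34 in the tumor. With the GC content and length correction only Eif1b kept a positive ratio in the tumor, at 0.41. Eif1, Eif1a and Eif1ax were then at -1.10, -0.055 and -0.25. Eif1, whose protein holds the scanning subunit open until a start codon is met, counted 509.7 CPM in monoculture, 872 in co-culture, 1221 in the spheroid and 308 in the tumor. The spheroid was highest and the tumor lowest, with log2 ratios to monoculture of 1.26 (interval 1.25 to 1.27) and -0.73 (-0.74 to -0.71), and the spheroid stood 3.97-fold above the tumor. Against monoculture the spheroid ratio was 0.86 with the GC and length correction and 0.74 with that for coding length and purines. Its paralogue Eif1b counted 46.3, 76.7, 80.2 and 76.4 CPM in the same order and was thus lowest in monoculture. Eif1b supplied 24.1% of the eIF1 level per exon length in the tumor, against 7.74% to 10.4% in the cultures.

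The eIF1A pair behaved differently. Eif1a counted 148, 194, 91.6 and 196 CPM in monoculture, co-culture, spheroid and tumor, and Eif1ax, its X-linked copy, 93.3, 118, 106 and 113 CPM. Eif1a was lowest in the spheroid, whereas Eif1ax varied little. The 2 genes are near-identical in sequence, so how the counting divided reads between them is uncertain.

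Of eIF2, which carries the initiator tRNA and is the target of the stress kinases, the alpha subunit gene Eif2s1 counted 212, 227, 119 and 294 CPM. The beta subunit gene Eif2s2 counted 231, 218, 213 and 356 CPM. Both were highest in the tumor, with log2 ratios to monoculture of 0.47 and 0.62. In the spheroid Eif2s1 was at -0.83 (-0.86 to -0.81) and Eif2s2 at -0.12. With the GC content and length correction the tumor ratios were -0.055 and 0.049, and that of Eif2s1 in the spheroid was -0.28. With that for coding length and purines they were 0.24, 0.49 and -0.84. The median of the pair was -1.02 between spheroid and tumor, and 0.02 once each gene's ratio was set against genes of similar GC content and length, so its direction there depended on that correction.

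The genes of eIF2B, the exchange factor that reloads eIF2 with GTP, split into 2 sets. Eif2b1 (alpha) counted 78.0, 71.96, 32.3 and 93.6 CPM in monoculture, co-culture, spheroid and tumor. Eif2b3 (gamma) counted 18.8, 14.5, 8.36 and 30.5 CPM, and Eif2b5 (epsilon, the catalytic subunit) 111, 84.3, 52.1 and 78.6 CPM. All 3 were lowest in the spheroid, with log2 ratios to monoculture of -1.27 (-1.32 to -1.22), -1.17 (-1.27 to -1.07) and -1.09 (-1.13 to -1.05). Eif2b1 was past 2-fold under both corrections, whereas Eif2b3 came to -0.72 (GC content and length) and -0.94 (coding length and purines), and Eif2b5 to -0.62 with the latter.

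The other subunits had the reverse order between spheroid and tumor. Eif2b2 (beta) counted 146, 137, 161 and 70.7 CPM, and Eif2b4 (delta) 79.6, 70.8, 96.9 and 36.0 CPM. Both were highest in the spheroid and lowest in the tumor, and the spheroid stood 2.28-fold and 2.69-fold above the tumor, whereas Eif2b1 and Eif2b3 stood 2.90-fold and 3.65-fold below it. With the GC content and length correction the log2 ratios between spheroid and tumor fell from 1.18 to 0.36 for Eif2b2 and from 1.40 to 0.25 for Eif2b4, while Eif2b1 and Eif2b3 stayed at -1.67 and -1.12. The level per exon length shows the resulting spread. The most abundant eIF2B subunit gene exceeded the least abundant, Eif2b3 in every library, by 19.5-fold in monoculture, 23.8-fold in co-culture, 48.4-fold in the spheroid and 6.14-fold in the tumor. Eif2b2 led in the cultures and Eif2b1 in the tumor.

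eIF3 is the largest initiation factor, a scaffold of many subunits around the small ribosomal subunit, and 12 of its genes had reads. Eif3a, a core subunit on which the others assemble, counted 490 CPM in monoculture, 136 in co-culture, 78.3 in the spheroid and 525 in the tumor. Eif3c, the core subunit that pairs with it, counted 602, 146, 151 and 460 CPM. Monoculture and tumor were high and both fibroblast cultures low for each gene. Relative to monoculture, Eif3a was 3.602-fold lower in co-culture and 6.26-fold lower in the spheroid, with log2 ratios of -1.85 (-1.87 to -1.82) and -2.65 (-2.68 to -2.62). Eif3c was 4.12-fold and 3.997-fold lower, with log2 ratios of -2.04 (-2.07 to -2.02) and -2.00 (-2.02 to -1.98). In the tumor the log2 ratios were 0.10 (0.08 to 0.11) and -0.39 (-0.40 to -0.37).

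Eif5b, outside eIF3 but part of the same pathway as the GTPase that joins the ribosomal subunits, counted 175, 38.5, 35.4 and 135 CPM. Its log2 ratios to monoculture were -2.18 (-2.23 to -2.14) in co-culture, -2.30 (-2.35 to -2.26) in the spheroid and -0.37 (-0.40 to -0.35) in the tumor. Eif3a, Eif3c and Eif5b were the 3 genes of the 53 over 2-fold lower in co-culture. Eif5b and Eif3c differed little between co-culture and spheroid, with log2 ratios of -0.12 (-0.18 to -0.06) and 0.04 (0.01 to 0.07), while Eif3a was lower in the spheroid, at -0.80 (-0.83 to -0.76).

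The coding sequences of these genes share a high content of runs of A and G, a feature taken up after the data had been seen. Shown are the 60 coding bases with the most A and G in Eif3a and Eif3c and, for contrast, in Eif3h and Eif3f, which were not lower in these cultures. Capitals mark runs of at least 4 bases that are all A or G, and positions are in GRCm38, on the strand of the gene.
Eif3a: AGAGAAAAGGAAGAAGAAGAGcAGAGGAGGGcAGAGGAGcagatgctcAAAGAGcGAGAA
Eif3c: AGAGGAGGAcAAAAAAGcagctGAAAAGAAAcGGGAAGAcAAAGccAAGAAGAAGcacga
Eif3h: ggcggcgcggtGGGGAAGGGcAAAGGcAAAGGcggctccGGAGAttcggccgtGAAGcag
Eif3f: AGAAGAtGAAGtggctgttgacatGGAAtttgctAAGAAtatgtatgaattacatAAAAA

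The Eif3a window spans exons 16 and 17 (chr19:60768885-60769917, minus strand) and holds 52 purines. That of Eif3c lies in exon 9 (chr7:126558941-126559000, minus strand) and holds 50. The Eif3h window in exon 1 (chr15:51865344-51865403, minus strand) holds 42, and the Eif3f window across exons 2 and 3 (chr7:108937807-108938085, plus strand) holds 39. The coding sequences of Eif3a and Eif3c (4032 and 2733 bases) are longer than those of Eif3h and Eif3f (1056 and 1083 bases). Their richest windows were thus picked from more positions, and the 4 window counts are not on equal terms. Over the whole coding sequence, windows of 4 bases made only of A and G came to 249 per 1000 bases in Eif5b, 205 in Eif3a and 142 in Eif3c, against 104 in Eif3h and 49.9 in Eif3f. Among the genes tested these are the 99.7, 98.5, 85.1, 48.2 and 2.11 percentiles. Eif3f has the fewest such windows of the 53 genes, and the feature did not separate the eIF3 genes that were lower from the others. Eif3g, with 153 windows per 1000 bases (percentile 90.3), has more than Eif3c, and its log2 ratio to monoculture was 0.31 in co-culture and 0.24 in the spheroid.

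The remaining eIF3 genes did not follow Eif3a and Eif3c. These 10 were set apart after the values had been seen, and their log2 ratios between co-culture and monoculture lay between -0.62 (Eif3d) and 0.35 (Eif3m), with a median of 0.21. Per exon length, the most abundant of the 12 subunit genes exceeded the least abundant by 2.91-fold in monoculture, 10.5-fold in co-culture, 18.8-fold in the spheroid and 5.63-fold in the tumor. Without Eif3a and Eif3c the same ratio was 2.51-fold in co-culture and 3.73-fold in the spheroid, and was the same as before in monoculture and tumor. Eif3h was the most abundant subunit gene per length in each culture, at 252, 279 and 287 CPM per kb in monoculture, co-culture and spheroid, and stood at 246 CPM per kb in the tumor, where Eif3e was higher at 269.

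**Figure D3:**
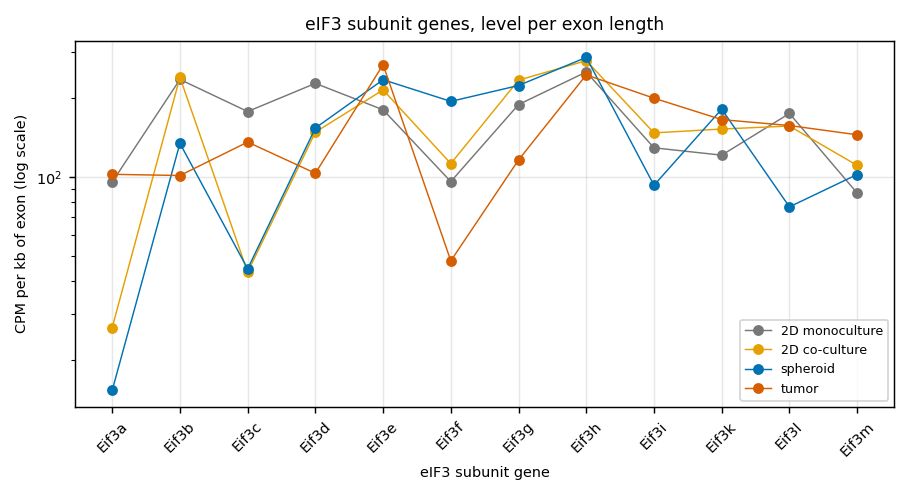
Level of the 12 eIF3 subunit genes per kb of exon (log axis), 1 line per library, with no error bars because each condition has 1 library. The co-culture and spheroid lines drop at Eif3a (26.6 and 15.3 CPM per kb, against 95.6 in monoculture and 102 in the tumor) and at Eif3c, and the tumor line drops at Eif3f.

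Other eIF3 genes followed profiles of their own. Eif3f, a subunit of its outer ring, counted 241 CPM in monoculture, 283 in co-culture, 489 in the spheroid and 120 in the tumor. The spheroid was 2.03-fold above monoculture and 4.07-fold above the tumor, the largest spheroid-to-tumor ratio of the 53 genes. Eif3l, of the same outer ring, counted 340, 304, 149 and 305 CPM and was low in the spheroid alone, at a log2 ratio to monoculture of -1.19 (-1.21 to -1.16). Eif3b, a core subunit, counted 695, 709, 396 and 298 CPM, and Eif3d, which can bind the cap of some mRNAs, 433, 282, 292 and 196 CPM. Both were over 2-fold lower in the tumor than in monoculture, with log2 ratios of -1.22 and -1.14. Eif3b came to -0.38 there with the GC content and length correction and to -0.92 with that for coding length and purines, and Eif3d to -1.03 and -1.11. For Eif3f in the spheroid against monoculture the corrected values were 0.87 and 0.53. The genes Eif3e, Eif3g, Eif3h, Eif3i, Eif3k and Eif3m stayed within 2-fold of monoculture in every library.

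Of eIF4F and its helpers, the 3 scaffold genes were over 2-fold lower in the spheroid than in monoculture. Eif4g1, the main scaffold, counted 1278 CPM in monoculture, 1503 in co-culture, 503 in the spheroid and 513 in the tumor. Its log2 ratio to monoculture was 0.23 (0.22 to 0.24) in co-culture, -1.35 (-1.36 to -1.33) in the spheroid and -1.32 (-1.33 to -1.31) in the tumor. The 2D libraries were thus high and the spheroid and tumor low, with a log2 ratio of -0.03 (-0.04 to -0.01) between the last pair. These relations depended on the corrections. With that for GC content and length the tumor ratio of Eif4g1 to monoculture was -0.49 and the ratio of spheroid to tumor -0.89, and with that for coding length and purines the spheroid ratio to monoculture was 0.06, the tumor ratio -0.91 and the ratio of spheroid to tumor 1.19. Eif4g2, a relative of eIF4G that lacks the site for eIF4E and works without the cap-binding protein, counted 1559, 945, 494 and 1245 CPM. It was lowest in the spheroid, 3.16-fold under monoculture, and its ratio came to -0.52 with the GC content and length correction and -0.54 with the other. Eif4g3, the paralogue of Eif4g1, counted 161, 84.1, 68.5 and 63.6 CPM and was highest in monoculture. Its corrected ratios to monoculture were -0.70 and 0.42 in the spheroid and -0.35 and -0.99 in the tumor.

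The shares of the scaffolds within the eIF4G family differed accordingly. Per exon length, Eif4g1 made up 50.1%, 66.3%, 54.9% and 34.4% of the family in monoculture, co-culture, spheroid and tumor, and Eif4g2 46.1%, 31.5%, 40.7% and 63.1%. The tumor was the only library in which Eif4g2 exceeded Eif4g1 per length. By reads Eif4g2 exceeded Eif4g1 in monoculture too, at 52.0% against 42.6% of the family, so this depended on the merged exon lengths. With the GC content and length correction the tumor ratios to monoculture were close, at -0.49 for Eif4g1 and -0.40 for Eif4g2. With that for coding length and purines they were -0.91 and -0.04.

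Among cap-binding proteins, Eif4e counted 125, 142, 113 and 202 CPM in monoculture, co-culture, spheroid and tumor. Eif4e2, a homologue that represses translation, counted 150, 157, 142 and 76.9 CPM, and Eif4e3 52.4, 70.3, 77.8 and 37.3 CPM. The tumor thus had the highest Eif4e and the lowest homologue levels, and Eif4e made up 61.1% of the 3 per exon length there, against 30.5% to 37.4% in the cultures. Between tumor and monoculture the log2 ratios of Eif4e, Eif4e2 and Eif4e3 were 0.69, -0.95 and -0.48 with 1 CPM added. They were 0.16, -0.32 and -0.73 with the GC content and length correction, and 0.69, -1.06 and -0.45 with that for coding length and purines. Of the helicases, Eif4a1 counted 443, 662, 405 and 607 CPM and Eif4a2 258, 299.5, 274 and 430 CPM, both within 2-fold of monoculture in every library. The helicase cofactors differed from each other. Eif4h counted 616, 879, 963 and 346 CPM and was highest in the spheroid, and Eif4b 643, 686, 411 and 422 CPM and was lower in spheroid and tumor than in the 2D cultures.

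Of the late initiation factors, Eif5, the GTPase activator of eIF2, counted 758, 475, 358 and 440 CPM, and was highest in monoculture. Its log2 ratio between spheroid and monoculture was -1.08 (-1.10 to -1.07), and -0.50 and -0.40 with the GC content and length and the coding length and purine corrections. Eif6, which keeps the large subunit from joining too early, counted 234.5, 273, 294 and 105 CPM and was low in the tumor alone, at -1.15 (-1.18 to -1.13) relative to monoculture, or -0.50 with the GC content and length correction. Eif5a, which helps the ribosome through difficult stretches and carries the modified residue hypusine, counted 1372, 2399, 1542 and 1042 CPM. It had the highest log2 ratio of the 53 genes between co-culture and monoculture, 0.81, and its paralogue Eif5a2 made up 0.310% to 1.06% of the pair per exon length.

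The elongation factors carried the most reads. Eef1a1, which delivers aminoacyl-tRNA, counted 9077 CPM in monoculture, 5560 in co-culture, 4143 in the spheroid and 10769 in the tumor. Eef2, the translocase, counted 5285, 5513, 7268 and 2137 CPM. The tumor was highest for Eef1a1 and lowest for Eef2, and the spheroid was lowest for Eef1a1 and highest for Eef2. Relative to the tumor, the spheroid was at a log2 ratio of -1.38 (-1.38 to -1.37) for Eef1a1 and 1.77 (1.76 to 1.77) for Eef2. Per exon length, Eef1a1 exceeded Eef2 2.96-fold in monoculture, 1.74-fold in co-culture and 8.68-fold in the tumor, and the genes were level in the spheroid at a ratio of 0.981.

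**Figure D4:**
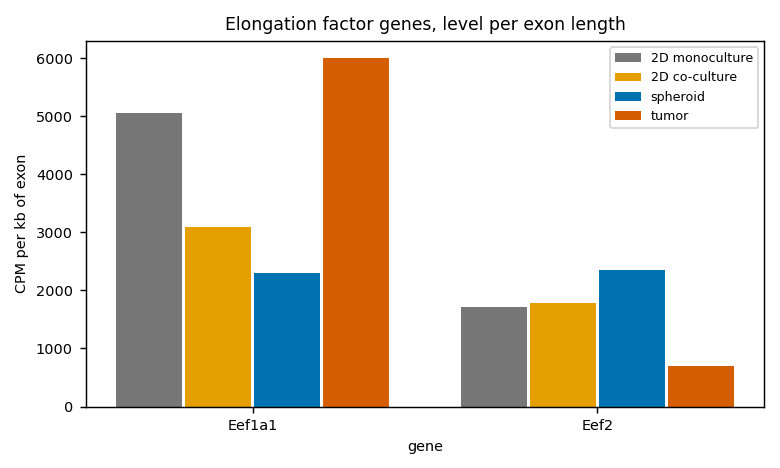
Level of Eef1a1 and Eef2 per kb of exon in each library (bars from 0, 1 library per bar, no error bars). Eef1a1 lies at 5060, 3099, 2309 and 6003 CPM per kb in monoculture, co-culture, spheroid and tumor, and Eef2 at 1711, 1785, 2353 and 692.

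The ratios of Eef2 depended on a correction for base content. Against genes of similar GC content and exon length, the log2 ratio of Eef2 was -0.26 in place of 0.46 between spheroid and monoculture, -0.47 in place of -1.31 between tumor and monoculture, and 0.35 in place of 1.77 between spheroid and tumor. That of Eef1a1 was -1.30 in place of -1.13, -0.05 in place of 0.25 and -1.24 in place of -1.38 in the same comparisons.

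Genes of the eEF1B subunits, which reload eEF1A, differed less. Eef1b2 counted 837, 1215, 1000 and 919 CPM, Eef1g 430, 690, 469 and 339 CPM and Eef1d 248, 343, 212 and 242 CPM in monoculture, co-culture, spheroid and tumor. All 3 were highest in co-culture and within 2-fold of monoculture in every library, and none followed Eef1a1, which was lower in co-culture than in monoculture.

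Eef1a2 had 100, 23, 12 and 7800 reads in monoculture, co-culture, spheroid and tumor, or 0.702, 0.201, 0.0881 and 48.0 CPM. Its log2 ratio between tumor and monoculture was 6.10 (5.81 to 6.396), a 68.4-fold difference, and it was the only gene of the 53 over 2-fold higher in the tumor than in monoculture. Even there it made up 0.444% (exact interval 0.434% to 0.454%) of the reads of both eEF1A genes. The skeletal muscle markers (Acta1, Myh4, Ckm, Tnnt3, Mylpf, Actn3 and Ttn) together stood at 5228 CPM in the tumor and at 7.38, 12.5 and 14.7 CPM in monoculture, co-culture and spheroid. As a share of the tumor level, Eef1a2 was at 1.46%, 0.418% and 0.183% in these cultures, and the median muscle marker at 0.0742%, 0.197% and 0.140%. The part of muscle RNA in the Eef1a2 level was not tested.

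Of the 9 remaining name matches, Eef2k encodes the kinase that inhibits eEF2. It counted 57.8, 74.4, 121 and 31.5 CPM in monoculture, co-culture, spheroid and tumor, the same order as Eif1 and Eif3f. Its log2 ratio was 1.07 (1.03 to 1.10) between spheroid and monoculture and 1.94 (1.89 to 1.99) between spheroid and tumor. Eif2a, an alternative carrier of initiator tRNA, counted 64.6, 44.0, 36.5 and 94.3 CPM, and Eef1akmt1, a methyltransferase of eEF1A, 20.1, 22.4, 11.1 and 33.9 CPM. Both were lowest in the spheroid and highest in the tumor, the reverse of Eef2k. The others, Eef2kmt, Eef1e1, Eif1ad, Eif2d, Eif4a3 and Eif4enif1, stayed within 2-fold in each of the 5 comparisons.

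A list of 34 further genes of initiation, elongation and termination, kept apart from the 54, had a median log2 ratio of -0.07 between spheroid and monoculture, with 3 genes (8.82%) over 2-fold higher and 8 (23.5%) over 2-fold lower, beside 11.2% and 17.9% of all genes. These shares are near the background, and the values that follow describe single genes, not the list. The corrections for base content and length were not computed for these 34 genes. Whether their differences depend on those features was not tested. The 3 higher ones act on the factors above. Ppp1r15a, the stress-induced subunit of the eIF2 alpha phosphatase, counted 171 CPM in monoculture, 148 in co-culture, 699.8 in the spheroid and 18.2 in the tumor. Eif4ebp1, the repressor that holds eIF4E, counted 304, 359, 758 and 151 CPM, and Rps6kb2, a ribosomal protein S6 kinase, 16.8, 25.8, 37.3 and 10.9 CPM. Each of them was highest in the spheroid and lowest in the tumor.

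Among the 8 lower genes, Dhx29, a helicase of scanning, counted 45.8, 18.8, 7.51 and 33.3 CPM. Ddx3x, another helicase, counted 494, 314, 127 and 716 CPM, and Abce1, which recycles ribosomes, 147, 97.5, 48.6 and 212 CPM. The termination factor genes Etf1 (267, 249.7, 100.3 and 216 CPM) and Gspt1 (283, 264, 118 and 180 CPM) were lowest in the spheroid and differed little between both 2D cultures. Of the eIF2 kinases, Eif2ak2, which responds to double-stranded RNA, counted 30.7, 7.83, 7.74 and 62.2 CPM and Eif2ak4, which responds to amino acid lack, 41.9, 18.6, 13.96 and 19.3 CPM. Eif2ak1 counted 82.8, 69.5, 48.5 and 52.3 CPM and Eif2ak3 43.9, 38.8, 41.7 and 28.4 CPM. Paip2b, an inhibitor of poly(A)-binding protein, was the last of the 8, at 89.4, 68.9, 43.6 and 97.7 CPM. In the tumor 0 of the 34 genes were over 2-fold higher than in monoculture and 9 (26.5%) were over 2-fold lower, beside 14.8% and 18.2% of all genes. In co-culture 0 were higher and 4 (11.8%) lower, beside 3.79% and 9.51%.

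Coding length ran along with the ratios of co-culture and spheroid to monoculture, and base content did so less. Across the 53 genes, the Spearman correlation of coding length with the log2 ratio to monoculture was -0.63 for co-culture and -0.53 for the spheroid, beside -0.40 for each over 12065 genes with a coding sequence. For purine windows per kb it was -0.06 and -0.27, beside -0.21 and -0.35 over the same 12065 genes. For GC content it was 0.02 and 0.22, beside 0.20 and 0.46 over 12466 genes. These are correlations across genes of 1 pair of libraries, and genes are not independent replicates. With all genes split by coding length into 4 classes of equal size, the 9 translation factor genes of the longest class had a median log2 ratio of -0.72 in co-culture and -1.34 in the spheroid, and the 16 of the shortest class 0.40 and 0.22. Eif4g1 went against this in co-culture, with 4800 coding bases and a log2 ratio of 0.23.

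**Figure D5:**
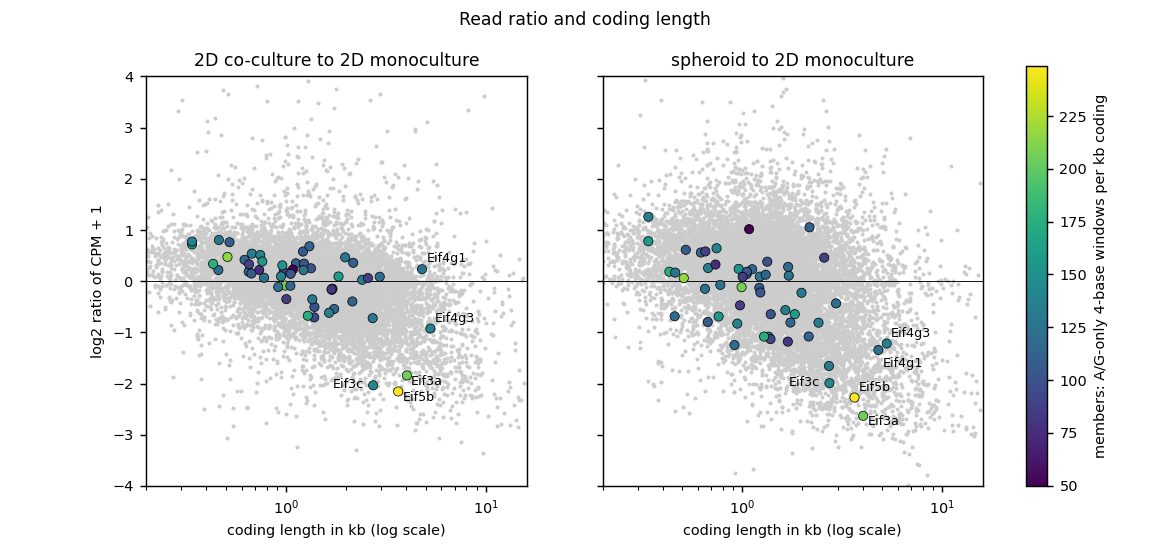
Log2 ratio of CPM + 1 to 2D monoculture against coding length in kb (log axis) for co-culture and spheroid, with all genes tested in grey within the limits of the axes and the translation factor genes coloured by the number of 4-base windows of A and G only per kb of coding sequence. Eif3a, Eif3c and Eif5b lie at the low edge of the translation factor genes in both panels, and Eif4g1 lies above 0 in co-culture.

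Length and purine content together went with lower ratios well beyond the translation factors. There were 734 genes in the top class of 4 for both, and their median log2 ratio to monoculture was -0.89 in co-culture, -1.41 in the spheroid and -0.24 in the tumor. Of them 42.9%, 66.3% and 22.1% were over 2-fold lower, beside 9.51%, 17.9% and 18.2% of all genes, so that in the tumor the share was close to the background. Translation factor genes in this set were Eif3a, Eif3b, Eif3c, Eif4g2, Eif4g3 and Eif5b, with medians of -1.38 in co-culture and -1.82 in the spheroid. The purine-rich but short genes Eif2s2 (208 windows per 1000 bases, 993 coding bases) and Eif1ad (216 windows, 510 coding bases) had log2 ratios in co-culture of -0.09 and 0.48.

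With the correction for coding length and purine content, the log2 ratios in co-culture became -0.48 for Eif3a, -1.31 for Eif3c, -0.79 for Eif5b and 1.04 for Eif4g1. In the spheroid they became -0.79, -0.69, -0.43 and 0.06. Eif3c was then the only translation factor gene over 2-fold lower in co-culture. In the spheroid 5 genes were over 2-fold lower after this correction, of which Eif3l at -1.51, Eif2b1 at -1.37 and Eef1a1 at -1.25 were so before it, and Eif5a2 at -1.31 and Eef1akmt1 at -1.26 were not. Why long and purine-rich mRNAs had fewer reads in these libraries was not tested.

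GC content ran along with the tumor comparisons. Across the 53 genes its Spearman correlation with the log2 ratio was -0.55 between tumor and monoculture and 0.50 between spheroid and tumor, beside -0.38 and 0.52 over 12466 genes. With all genes split into 4 classes by GC content, the 9 translation factor genes of the highest class had a median log2 ratio of -1.04 between tumor and monoculture and the 15 of the lowest class 0.46. Eef2, Eif3b and Eif6, all lower in the tumor, belonged to the highest class, and Eif2s1, higher there, to the lowest. Eef1a2 went against this, with the highest GC content of the 53 genes (60.6%) and the highest log2 ratio between tumor and monoculture (4.85 with 1 CPM added).

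The mRNAs of many of these factors are known to begin with a terminal oligopyrimidine (TOP) tract, a C followed by pyrimidines at the first transcribed base, through which growth signalling controls their translation. A list of 11 such genes had a median log2 ratio between spheroid and monoculture of 0.13, with 1 gene (9.09%) over 2-fold higher (Eif3f) and 2 (18.2%) lower (Eif3a and Eef1a1), beside 11.2% and 17.9% of all genes. In co-culture 0 were higher and 1 (9.09%) lower, beside 3.79% and 9.51%, and in the tumor 1 (9.09%) was higher and 2 (18.2%) lower, beside 14.8% and 18.2%. Between spheroid and tumor 2 (18.2%) were higher and 3 (27.3%) lower, beside 26.8% and 27.6%, so the shares were near the background. RefSeq promoters of GRCm38.p6 were at hand for 7 of the 11, and 1 of the 7 began with C and a run of at least 5 pyrimidines at the annotated start, against 3.01% of 27025 genes. That gene was Eif3f, shown from 10 bases before its start to 20 after it with the run of 11 pyrimidines in capitals (chr7:108934405-108934434, plus strand).
Eif3f: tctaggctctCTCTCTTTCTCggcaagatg

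Annotated starts can lie some bases from the true first base, so a start without these letters says only that they are not at that position.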

How the data were processed

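RNA of 4 groups, 1 library each, was enriched for poly(A) and sequenced as paired reads per the labels. The deposited table gives read counts per refGene symbol, whole numbers without normalization, which the submitters' processing notes tie to Trimmomatic, STAR, featureCounts and the build mm10, with no versions or settings. The methods name 3 RNA isolations for these sources, and whether they were pooled is not given in the sources used here. Columns were matched to groups by their labels.

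From these counts, CPM were computed with TMM factors of 0.984, 0.963, 0.908 and 1.16 (monoculture, co-culture, spheroid and tumor; edgeR 4.0.16 in R 4.3.3). DESeq2 1.42.0 size factors, total counts, upper quartile factors and TMM factors over the cultures alone were alternatives, as were 0.1 CPM added, other filters on low values and ratios corrected for GC content and length or for coding length and purine content, in 10 by 10 classes. Everything else was done in Python 3.11.15 (scipy 1.17.1, pandas 2.3.3, numpy 2.4.6, matplotlib 3.10.9). For a ratio, the exact Clopper-Pearson bounds of 1 library's share of the reads of both were converted to log2, and they cover counting error only. The study's own method simulates replicates for want of them. No simulated call was used and no p-value was computed. A test on simulated counts covered the TMM scaling and the log2 ratios only.

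Exon length, GC content and coding sequences came from GENCODE M21 (GRCm38, the same assembly as mm10). Exon length was that of all exons of a gene merged over its transcripts of the basic set. It can exceed the length of any single mRNA of the gene. GC content was that of the longest transcript, and the longest coding sequence of each gene was used. All 54 genes and 97.9% of the genes tested had a length and GC content, and 94.8% a coding sequence. Promoters came from RefSeq, and 42 of the 54 genes had an entry. Pathway, TOP and marker lists, the gene grouping and the rule for named genes (all members of the small complexes, any gene over 2-fold in a comparison and the extremes of eIF3) were, like the members, chosen with earlier results of these data known.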

Additional observations from a re-analysis of the deposited data

How the results depend on the processing

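Of 624 medians and counts recomputed under the alternatives, 602 stayed within 1.5-fold of the main value and 21 moved further. The remaining 1 turned its direction from a main value of at least 1.5-fold. Some alternatives could hardly change a value. TMM factors over the cultures alone left the ratios between cultures nearly the same, and a filter at 10 CPM kept the same 53 genes. The 602 include these values, so that number overstates how far the results held. Changes of sign from smaller main values were classed by their distance alone. Among them was eEF2 between spheroid and monoculture, at 0.46 in the main analysis and -0.26 with the GC content and length correction. Of 56 log2 ratios of single genes over 2-fold in the main analysis, 54 were over 2-fold with DESeq2 size factors, 46 with total counts, 46 with upper quartile factors, 30 with the correction for GC content and length (3 reversed) and 29 with that for coding length and purine content (2 reversed). The causes were not tested.

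With total counts, 1 gene was over 2-fold higher in the spheroid than in monoculture (3 in the main analysis), 7 were lower in the spheroid than in co-culture (4), and 3 were lower in the tumor than in monoculture (9). The last count was also 3 with upper quartile factors and 3 with the correction for GC content and length. That correction gave Eef2 a log2 ratio of -0.26 between spheroid and monoculture, -0.23 between spheroid and co-culture, -0.47 between tumor and monoculture and 0.35 between spheroid and tumor. Between spheroid and tumor it moved the medians of eIF1 and eIF1A to 0.62 and of the eIF5, eIF5B and eIF6 group to 0.32, and reversed that of eIF2 to 0.017, Eif5a2 to 0.11, Eif4g2 to 0.051 and Eif1a to 0.092. Leaving out the near-identical Eif1a and Eif1ax moved the eIF1 median there to 1.03.

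With the correction for coding length and purine content, chosen after seeing the data, 1 gene was over 2-fold higher and 5 lower in the spheroid than in monoculture, and 1 higher and 1 lower in co-culture. It moved the eIF5 group to -0.40 in the spheroid, reversed Eif4g3 to 0.42 and Eif4g1 to 0.061 there, and gave Eef2 -0.71 between tumor and monoculture. Between spheroid and tumor 14 genes were then over 2-fold higher, and the medians were 0.83 for eIF4F and its helpers and 0.73 for the eIF5 group.

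No paired analysis was possible because the groups hold single libraries and share no replicate pair, and leaving out replicates was not possible either. Depth limits only the genes under 1 CPM, Eif4e1b and, in the cultures, Eef1a2.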
